A study of Mus musculus with 6 samples.

Results

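The genes described here are 48 genes of the cell cycle and of DNA replication, among 21851 genes counted in RNA of sorted mouse retinal cells. They were picked out of the table by symbol, from a list drawn up with earlier results of these data known, and were read in 4 sets. The first set holds 4 genes of entry from G1 into S phase, the second 15 genes of DNA replication and S phase, the third 27 genes of mitosis, and the fourth 2 transcription factors that act on mitotic genes. All 48 symbols were found in the deposited table, and all 48 passed the filter on low counts.

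The data are 6 RNA-seq libraries of cells sorted as CD45-positive with intermediate CD11b, the gate that the labels name as microglia, the resident macrophages of the retina. Libraries were made by the Smart-seq2 method from total RNA. There were 3 with the genotype label CD36 CKO, in which Cd36, the gene of a lipid scavenger receptor, is conditionally knocked out. The other 3 have the genotype label CD36 flox, and the protocol and description codes call these mice wild type. No source used here states the Cre driver, the sex or the age of the mice. The protocol describes sodium iodate (NaIO3), a toxic oxidant of the pigment epithelium, given into a vein at 20 mg/kg, controls given buffer, and collection after 7 days, but no label says which treatment a library had. The description codes of CKO 2 and CKO 3 differ only in the ending OD or OS, as do those of flox 2 and flox 3, so each pair can be both eyes of 1 mouse, and p-values over 3 against 3 libraries are then too small. Nothing else in the labels states that libraries came from separate animals, so p-values measure the spread between these libraries.

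A cell that divides copies its genome in S phase and parts the copies in mitosis. It makes much of the RNA of each phase mainly when that phase is near. Cyclin E and the E2F factors open S phase, the MCM helicase unwinds the DNA, and the polymerase clamp and the nucleotide-making enzymes sustain copying. Cyclin B with its kinase CDK1 then drives mitosis, and the anaphase-promoting complex with CDC20 ends it. Microglia in a healthy adult retina seldom divide, and they are known to proliferate after retinal injury. In sorted bulk RNA, fewer cycling cells and less of an RNA per cycling cell cannot be told apart.

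S phase and mitotic genes are read apart, and their promoters were searched for 3 known cell cycle motifs. RefSeq windows (GRCm38.p6, 250 bases before to 50 after a start site) were at hand for 38 of the 48 genes. E2F factors bind the letters TTCCCGC or TTGGCGC, the factor NF-Y binds the CCAAT box (CCAAT), and the cell cycle homology region, or CHR, reads TTTGAA or TTTAAA. Each was searched on both strands. Some genes have more than 1 start site, so 13 S phase genes gave 15 windows and 22 mitotic genes gave 23. An E2F match lay in 9 of the 15 S phase windows (60%) and in 3 of the 23 mitotic windows (13%), against 6.81% of all 32851 RefSeq windows. A CHR match lay in 21 of the 23 mitotic windows (91.3%) and in 4 of the 15 S phase windows (26.7%), against 27.6% of all windows. A CCAAT box lay in 12 of the 15 S phase windows (80%) and 21 of the 23 mitotic windows (91.3%), against 37.4% of all windows. A CCAAT box and a CHR stood together in 20 of the 23 mitotic windows (87.0%) and 4 of the 15 S phase windows, against 10.7% of all windows. In 1 of the 9 S phase windows with an E2F match, the match overlapped a CCAAT box, against 147 of 2236 such windows over all RefSeq windows. A match of letters is a description and not a bound site.

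The 4 stretches below are printed 5′ to 3′ as examples, chosen for their matches, with capitals for every match to these motifs on either strand. Each holds 250 bases before the start site and 15 after it. Mcm5 (chr8:75109259-75109523, plus strand) and Mcm6 (chr1:128359691-128359955, minus strand) encode subunits of the replicative helicase, and each holds 2 E2F matches. Mcm5 also holds 3 CCAAT boxes and 1 CHR match, and Mcm6 holds 2 CCAAT boxes. Top2a (chr11:99024175-99024439, minus strand), the topoisomerase that untangles sister DNA, holds 6 CCAAT boxes and 2 CHR matches. Cdc20 (chr4:118437329-118437593, minus strand), the activator of the anaphase-promoting complex, holds 2 CCAAT boxes around 1 CHR match.
Mcm5: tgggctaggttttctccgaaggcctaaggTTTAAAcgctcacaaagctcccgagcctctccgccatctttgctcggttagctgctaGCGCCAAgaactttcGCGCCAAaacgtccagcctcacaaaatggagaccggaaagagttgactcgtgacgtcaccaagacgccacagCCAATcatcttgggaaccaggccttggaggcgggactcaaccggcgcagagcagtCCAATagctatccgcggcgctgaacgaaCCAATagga
Mcm6: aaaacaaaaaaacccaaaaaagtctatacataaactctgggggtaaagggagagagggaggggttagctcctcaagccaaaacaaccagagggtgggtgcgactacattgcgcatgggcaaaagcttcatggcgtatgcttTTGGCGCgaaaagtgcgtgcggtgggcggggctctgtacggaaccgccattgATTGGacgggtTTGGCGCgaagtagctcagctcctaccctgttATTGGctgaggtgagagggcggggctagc
Top2a: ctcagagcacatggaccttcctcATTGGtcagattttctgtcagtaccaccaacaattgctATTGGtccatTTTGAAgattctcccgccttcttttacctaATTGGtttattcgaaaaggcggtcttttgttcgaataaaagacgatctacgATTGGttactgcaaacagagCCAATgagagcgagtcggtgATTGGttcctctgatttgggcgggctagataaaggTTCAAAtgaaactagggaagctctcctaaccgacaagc
Cdc20: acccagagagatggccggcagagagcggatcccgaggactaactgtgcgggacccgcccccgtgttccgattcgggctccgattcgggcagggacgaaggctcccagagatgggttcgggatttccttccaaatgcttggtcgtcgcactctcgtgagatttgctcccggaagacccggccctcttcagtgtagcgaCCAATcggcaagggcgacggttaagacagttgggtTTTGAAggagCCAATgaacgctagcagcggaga

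**Figure D1:**
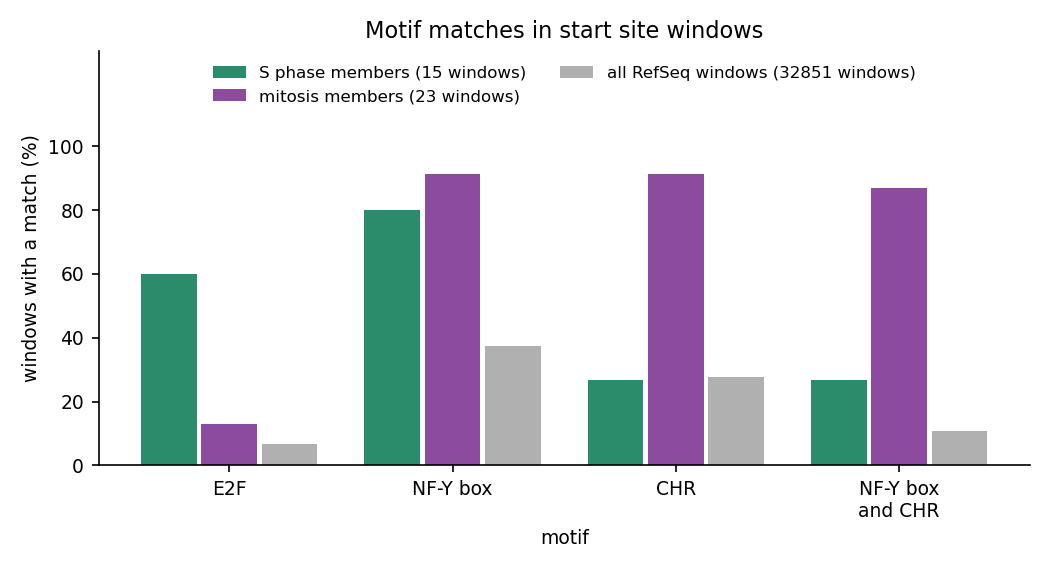
Percent of start site windows with a match to the E2F motif, the NF-Y (CCAAT) box, the CHR, or the box and the CHR together, in 15 windows of S phase genes, 23 windows of mitotic genes and all 32851 RefSeq windows. The E2F bar is tallest for S phase genes at 60%, and the CHR bar is tallest for mitotic genes at 91.3%.

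The libraries held 13462683 to 20018910 counts, and the 48 genes together took 25317 to 66727 of them, or 0.182% to 0.356%. Cd36 itself was counted in all 6 libraries, at 122, 65.2 and 28.5 CPM, a count scaled to library size, here with TMM factors, in CKO 1 to 3 and at 90.5, 193 and 144 CPM in flox 1 to 3. The library labelled CKO 1 thus held more Cd36 than flox 1, and every direction below refers to the labels. Microglial and macrophage markers (11 of a list of 12 were counted) summed to 12188 to 18596 CPM in the CKO libraries and 12432 to 17163 CPM in the flox libraries. The libraries also parted in a way the labels do not give. Haemoglobin genes stood at 1759 to 4242 CPM in the library labelled CKO 1, flox 2 and flox 3, and at 0.0837 to 0.339 CPM in CKO 2, CKO 3 and flox 1. Oocyte markers (21 of a list of 22 were counted, 1 of them at 0 in every library) ran the other way, at 6.53 to 14.2 CPM in the first 3 and 122 to 164 CPM in the other 3, as did a list of 12 T and NK cell markers, at 54.4 to 109 and 152 to 168 CPM. Within that list 5 T cell receptor and CD3 genes, chosen after their values were seen, stood at 0.552 to 17.1 and 57.9 to 76.5 CPM. Cd2, Cd4, Nkg7, Klrb1c and Ncr1 did not follow the split. Nkg7, the most abundant of the 12, had 66.8 CPM in flox 3, above 52.3 and 61.4 CPM in CKO 2 and CKO 3. Rod photoreceptor markers (7 genes) parted the same way as haemoglobin, at 9706 to 17300 CPM in the first 3 and 6175 to 7339 CPM in the other 3, highest in the library labelled CKO 1. Müller glia and astrocyte markers summed to 13019, 40639 and 29387 CPM in CKO 1 to 3 and to 16058, 13860 and 12077 CPM in flox 1 to 3, most of it Apoe, which microglia express too. The part of these other cells in the results below was not tested, and values without single libraries and within each haemoglobin class are given with the results.

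None of the 48 genes passed the test of CKO against flox. The quasi-likelihood test of edgeR, after Benjamini-Hochberg adjustment, called 0 of 13477 tested genes (0% called), and the smallest adjusted p among the 48 was 0.9996. At an unadjusted p under 0.05, 4 of the 48 were lower in CKO and 0 higher, where 1.37% of all tested genes were lower and 1.45% higher. These 4 were Ccne2, Mcm4, Rrm2 and Top2a. DESeq2 called 18 genes (0.136%), none of them among the 48, whose smallest DESeq2 adjusted p was 0.656. Of the 48 fold changes, 45 were negative, against 49.4% of all tested genes, and their median on the log2 scale was -0.32, against 0.00378 over all tested genes. The CKO and flox values overlapped for 46 of the 48. All 3 CKO values lay under all 3 flox values for 2 genes, Ccne2 and Mcm4, as they did for 4.12% of all tested genes.

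**Figure D2:**
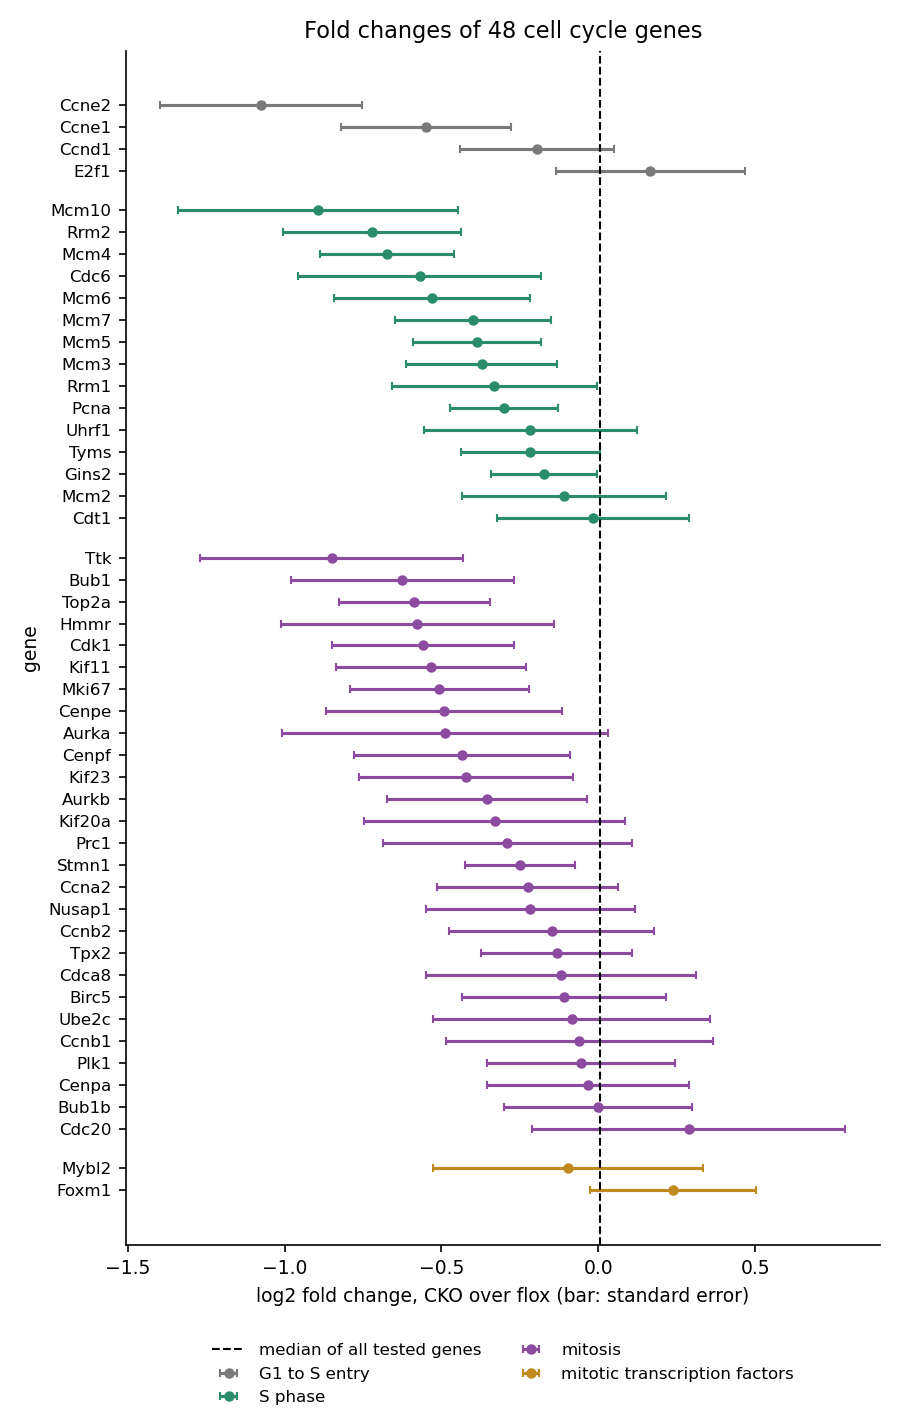
Log2 fold change of each of the 48 genes, CKO over flox, with its standard error (edgeR, 3 libraries each), by set; the dashed line is the median of all 13477 tested genes at 0.00378. The points reach from -1.08 for Ccne2 to 0.29 for Cdc20, and 45 of 48 lie below 0.

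Entry into S phase is set by the G1 cyclins and E2F1. Ccne2, which encodes cyclin E2, an activator of the kinase CDK2 (chromosome 4, 11191351 to 11204779, plus strand, GRCm38), had the smallest p of the 48. Its level was 13.2, 8.88 and 7.09 CPM in CKO 1 to 3, against 23.4, 23.8 and 14.2 CPM in flox 1 to 3. The highest CKO value, in the library labelled CKO 1, came close to the lowest flox value, in flox 3. The means were 9.74 ± 3.16 CPM in CKO and 20.5 ± 5.44 CPM in flox (SD, n = 3 each), and the log2 fold change was -1.08 (SE 0.32, unadjusted p = 0.00993, adjusted p = 0.9996, edgeR). Its exons overlap those of Ints8 on the opposite strand in the GENCODE annotation, and without a stated strand setting the reads of the pair cannot be told apart. In all, 13 of the 48 genes share exon sequence with another gene, on the opposite strand for most of them (among them Ccnd1, Mcm7, Gins2, Ccna2, Plk1, Cdc20 and Ube2c) and on the same strand for Foxm1 and Stmn1, and their levels are uncertain to that extent.

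Ccne1, the gene of cyclin E1, stood at 15.4, 16.5 and 13.8 CPM in CKO 1 to 3 and at 23.3, 28.6 and 14.8 CPM in flox 1 to 3. Flox 3 lay inside the CKO range, so the groups overlapped (log2 fold change -0.55, SE 0.27, adjusted p = 0.9996, edgeR). Ccnd1, which encodes cyclin D1, the partner of CDK4 and CDK6, had 97.8, 109 and 86.2 CPM in CKO and 145, 116 and 74.2 CPM in flox. Flox 3 was the lowest of all 6 libraries and flox 1 the highest, and the log2 fold change of -0.20 (SE 0.25) was under its error. E2f1, which encodes the factor that activates S phase genes, was the exception in sign, at 14.6, 17.3 and 21.8 CPM in CKO and 17.0, 20.6 and 10.2 CPM in flox (log2 fold change 0.17, SE 0.30).

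The 15 S phase genes had 15 negative fold changes with a median of -0.37, and 0 passed the test. Their summed level was 827, 693 and 643 CPM in CKO 1 to 3 (721 ± 95.3, SD, n = 3), against 1064, 1001 and 702 CPM in flox 1 to 3 (922 ± 193). Flox 3 lay within the CKO range, and flox 1 and flox 2 lay above it. Flox 1 held the highest level of 11 of the 15 genes and flox 2 of the other 4, Mcm10, Tyms, Rrm1 and Rrm2. The lowest level of 9 genes was in CKO 3 and of 4 in CKO 2. The median fold change was -0.20 without flox 1, with 12 of 15 negative, and -0.53 without flox 3.

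**Figure D3:**
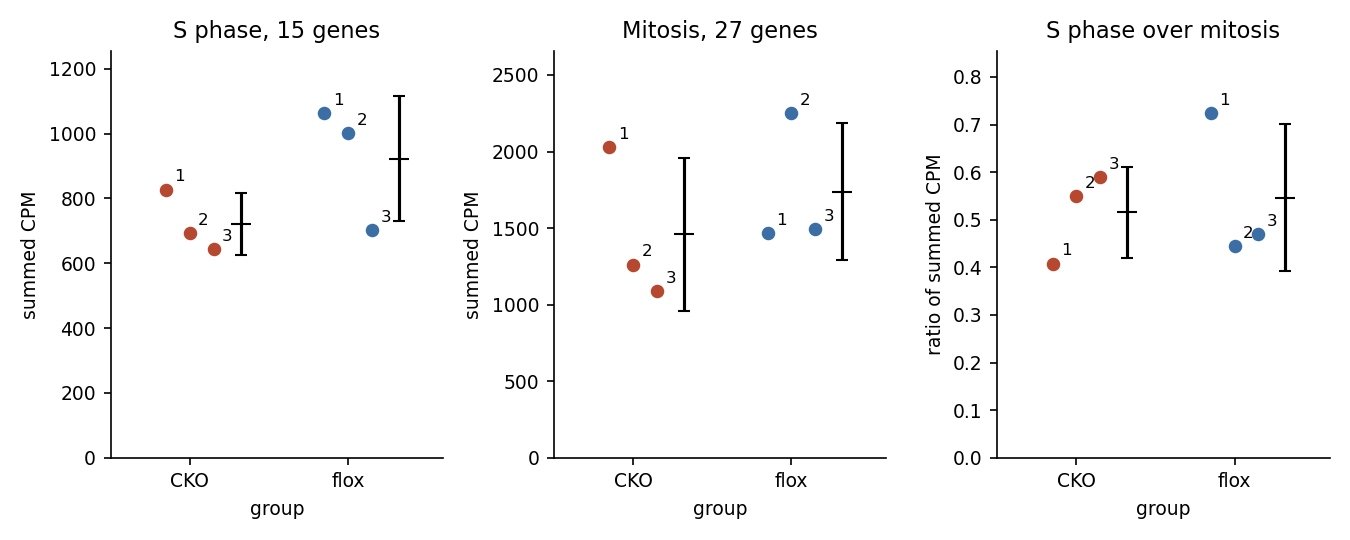
Summed CPM of the 15 S phase genes and of the 27 mitotic genes, and the ratio of the sums, in each library (points, numbered by replicate), with mean and SD of the 3 libraries of a group (bars). CKO and flox overlap in all 3 panels; flox 1 is highest for S phase, flox 2 for mitosis, and the ratio is highest in flox 1 at 0.725.

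The MCM2 to MCM7 proteins form the ring that unwinds DNA at each replication fork, and each of their genes had a negative fold change. Mcm4 (chromosome 16, 15623897 to 15637400, minus strand) stood at 33.0, 33.0 and 27.5 CPM in CKO 1 to 3 and at 60.4, 50.8 and 37.7 CPM in flox 1 to 3. The groups did not overlap, with means of 31.2 ± 3.17 CPM in CKO and 49.7 ± 11.4 CPM in flox (log2 fold change -0.67, SE 0.21, unadjusted p = 0.0129, adjusted p = 0.9996, edgeR). The other 5 subunit genes overlapped between the groups, with log2 fold changes of -0.53 for Mcm6, -0.40 for Mcm7, -0.39 for Mcm5, -0.37 for Mcm3 and -0.11 for Mcm2. Flox 1 held the highest level of all 6 genes.

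Summed, the 6 subunit genes reached 246, 235 and 207 CPM in CKO 1 to 3 (229 ± 19.7, SD, n = 3), against 398, 308 and 222 CPM in flox 1 to 3 (309 ± 88.0). The CKO libraries were close to each other, and flox 3 lay among them. Among the 6 subunit genes, Mcm2 had the least steady sign. It had 29.3, 18.6 and 33.0 CPM in CKO and 42.6, 21.7 and 23.0 CPM in flox. The fold change of Mcm2 turned to 0.27 without flox 1. Per kilobase of merged exon, mean levels over the 6 libraries were 8.31 CPM for Mcm2, 11.3 for Mcm4, 11.3 for Mcm5, 14.2 for Mcm6, 14.4 for Mcm7 and 18.8 for Mcm3. Mcm3 (15.2 to 29.2 CPM per kilobase over the libraries) did not overlap Mcm2 (5.51 to 12.6), while the means of Mcm4 to Mcm7 lay between them with ranges that overlapped.

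Around the helicase, Pcna, the gene of the sliding clamp of DNA polymerase, had 201, 169 and 182 CPM in CKO and 256, 237 and 187 CPM in flox. Flox 3 again lay inside the CKO range (log2 fold change -0.30, SE 0.17). Mcm10, which helps to start replication forks, had 5.95, 3.94 and 4.16 CPM in CKO and 9.49, 12.4 and 4.24 CPM in flox (log2 fold change -0.89, SE 0.45). Cdc6 and Cdt1 encode the factors that load the helicase on DNA, and their log2 fold changes were -0.57 (SE 0.39) and -0.016 (SE 0.31). Gins2, a part of the active helicase, had -0.17 (SE 0.17), and Uhrf1, which recruits the maintenance methyltransferase to new DNA, had -0.22 (SE 0.34).

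Deoxynucleotides for the new strands come from ribonucleotide reductase and thymidylate synthase. Rrm2, the S phase subunit of the reductase, stood at 40.0, 50.6 and 37.2 CPM in CKO 1 to 3 and at 72.9, 94.2 and 43.4 CPM in flox 1 to 3. CKO 2 lay above flox 3, so the groups overlapped (42.6 ± 7.07 CPM in CKO and 70.2 ± 25.5 CPM in flox; log2 fold change -0.72, SE 0.28, unadjusted p = 0.0339, adjusted p = 0.9996, edgeR). Rrm1, the large subunit, was split within CKO, at 111 CPM in the library labelled CKO 1 and 59.9 and 50.02 CPM in CKO 2 and CKO 3. Its flox libraries held 85.5, 120 and 72.1 CPM. Tyms, the synthase gene, had the same order within CKO, at 110, 87.9 and 67.9 CPM in CKO and 98.5, 123 and 87.3 CPM in flox. Copies named as pseudogenes or related sequences of Pcna, Tyms, Ccnb1, Ccnb2 and Stmn1 exist in the annotation, so reads of these 5 genes may be shared with them.

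**Figure D4:**
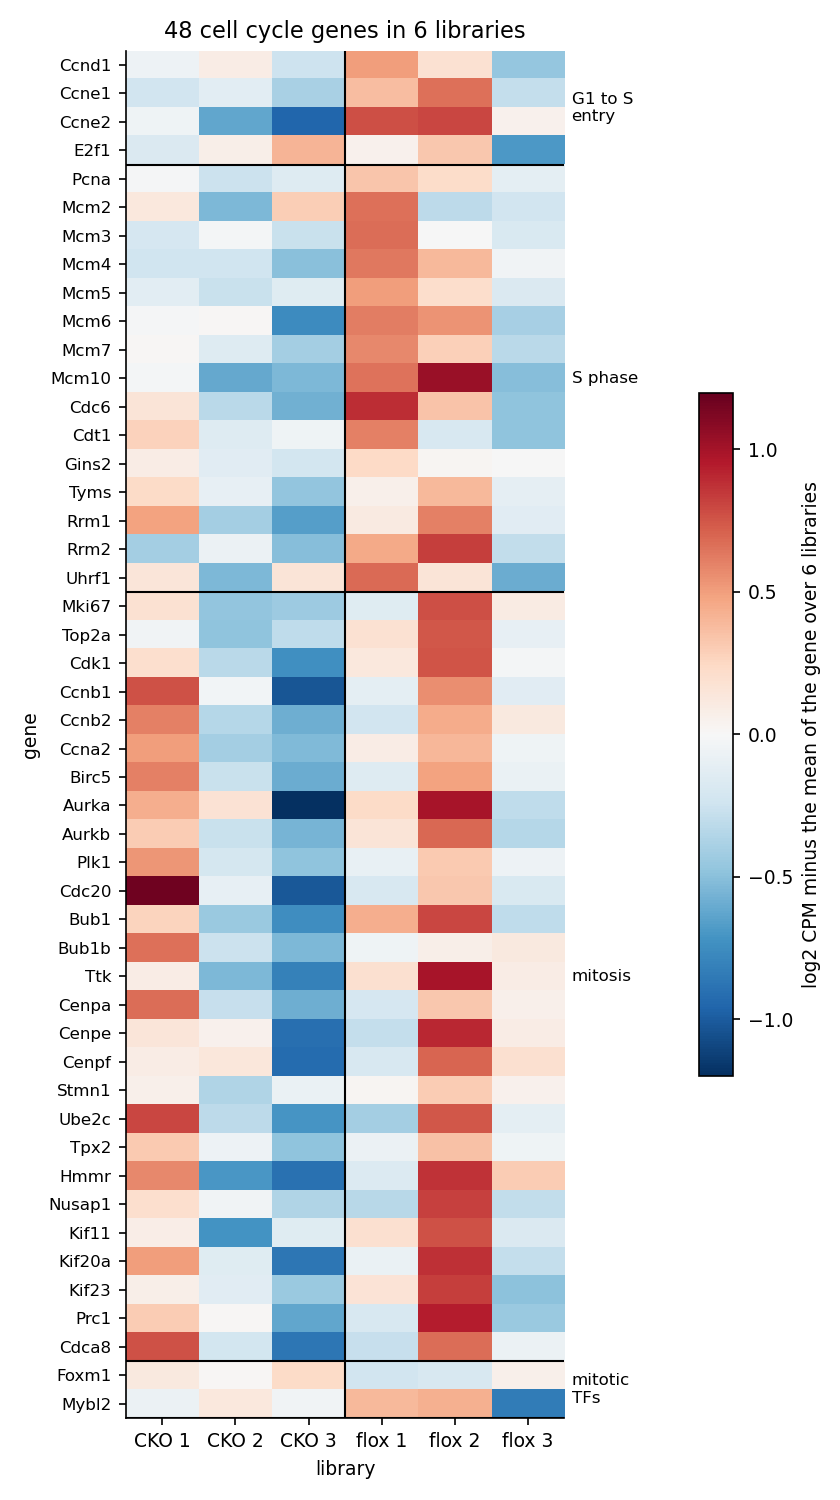
Level of each of the 48 genes (rows, by set) in each library (columns, CKO then flox), as log2 CPM minus the mean of that gene over 6 libraries. S phase genes are high in flox 1 (highest for 11 of 15), mitotic genes are high in flox 2 (17 of 27) and in the library labelled CKO 1 (10 of 27), and CKO 3 is lowest for 22 of the 27 mitotic genes.

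The 27 mitotic genes had 26 negative fold changes with a median of -0.29, and 0 passed the test. Their summed level was 2026, 1261 and 1089 CPM in CKO 1 to 3 (1459 ± 499, SD, n = 3), against 1468, 2253 and 1494 CPM in flox 1 to 3 (1738 ± 446). The library labelled CKO 1 stood second of the 6, and CKO 2 and CKO 3 were the lowest pair. The library labelled CKO 1 also had the highest share of mitochondrial counts, 8.70% against 4.85% to 6.02% in the other 5 libraries, and the highest rod marker sum, and the part of either in the mitotic values was not tested. CKO 3 held the lowest level of 22 of the 27 genes and CKO 2 of 4. For 13 of the 27 genes CKO 2 and CKO 3 were the 2 lowest libraries, as they were for 11.2% of all tested genes. The median fold change depended on single libraries: it was -0.63 without the library labelled CKO 1, -0.42 without flox 1, -0.48 without flox 3, -0.081 without CKO 3 and -0.032 without flox 2, where 14 of 27 were negative. A list of 7 bone marrow progenitor markers, 4 of them (Mpo, Elane, Ctsg and Ms4a3) at 0 in every library, was ordered much like the mitotic sum, at 130, 54.3 and 56.6 CPM in CKO 1 to 3 and 71.3, 265 and 177 CPM in flox 1 to 3. Cd34, which endothelial cells also express, made up most of that sum and set its order. Kit and Prtn3, the other members with counts, ran against it, both lowest in flox 2 and flox 3. Kit had 2.54 and 2.09 CPM there and was highest in CKO 2 at 9.88 CPM. Prtn3 had 0.829 and 0.379 CPM there and was highest in CKO 3 at 4.99 CPM. The part of these markers in the result was not tested.

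The proliferation marker Mki67, which coats mitotic chromosomes (chromosome 7, 135689784 to 135716361, minus strand), had 93.3, 59.2 and 60.8 CPM in CKO 1 to 3 and 74.1, 141 and 88.1 CPM in flox 1 to 3. The library labelled CKO 1 exceeded flox 1 and flox 3 (log2 fold change -0.51, SE 0.29, adjusted p = 0.9996, edgeR). Top2a, whose promoter is printed above, had 72.1, 53.3 and 60.4 CPM in CKO and 84.6, 125 and 69.5 CPM in flox. The groups met at the library labelled CKO 1 and flox 3, with means of 61.9 ± 9.51 CPM in CKO and 93.0 ± 28.5 CPM in flox (log2 fold change -0.59, SE 0.24, unadjusted p = 0.0406, adjusted p = 0.9996, edgeR). Cdk1, the kinase that drives entry into mitosis, had 104, 72.2 and 54.5 CPM in CKO and 98.7, 152 and 89.0 CPM in flox (log2 fold change -0.56, SE 0.29).

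Of the genes of the spindle checkpoint, which holds anaphase until every chromosome is attached, Ttk, the MPS1 kinase gene, had 5.82, 3.77 and 3.14 CPM in CKO and 6.25, 10.9 and 5.82 CPM in flox (log2 fold change -0.85, SE 0.42). The library labelled CKO 1 and flox 3 were level with each other. Bub1 had a log2 fold change of -0.63 (SE 0.36). Bub1b, the gene of the checkpoint protein BUBR1, had 77.1, 40.8 and 33.6 CPM in CKO and 47.1, 51.4 and 53.1 CPM in flox. There the library labelled CKO 1 lay above and the other CKO libraries below all 3 flox libraries. Kif11, a motor that parts the spindle poles, had 24.8, 14.2 and 21.2 CPM in CKO and 26.7, 39.8 and 20.7 CPM in flox (log2 fold change -0.53, SE 0.30).

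The library labelled CKO 1 was the highest of all 6 for 10 mitotic genes, namely Ccnb1, Ccnb2, Ccna2, Birc5, Plk1, Cdc20, Bub1b, Cenpa, Ube2c and Cdca8, and flox 2 was the highest for the other 17. Cdc20 had the widest ratio of the library labelled CKO 1 to the flox libraries, at 48, 20.01 and 10.6 CPM in CKO 1 to 3 and 18.7, 26.8 and 18.8 CPM in flox 1 to 3, and it alone of the 27 had a positive fold change (log2 0.29, SE 0.50). Ccnb1, the gene of cyclin B1, spanned 125, 71.5 and 35.9 CPM in CKO and 67.8, 108 and 66.5 CPM in flox. Ube2c, the ubiquitin-conjugating enzyme that works with the anaphase-promoting complex, spanned 137, 63.1 and 47.97 CPM in CKO and 59.3, 131 and 72.1 CPM in flox. For these 3 genes the CKO range enclosed the flox range, and the log2 fold changes of Ccnb1 and Ube2c were -0.061 (SE 0.43) and -0.085 (SE 0.44).

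The remaining chromosome and spindle genes overlapped between the groups as well. Cenpa, the centromeric histone gene, had 158, 82.1 and 66.2 CPM in CKO and 86.4, 124 and 103 CPM in flox, and Birc5, the survivin subunit of the chromosomal passenger complex, had 198, 109 and 86.7 CPM in CKO and 118, 183 and 124 CPM in flox. Aurka, a kinase of the spindle poles, had the lowest value of the 48 genes relative to its own mean, 6.37 CPM in CKO 3, against 24.8 and 20.6 CPM in CKO 1 and CKO 2 and 21.4, 36.4 and 14.8 CPM in flox. Stmn1, a tubulin-binding protein gene that neurons also express, had the smallest standard error of the 27, at 329, 245 and 297 CPM in CKO and 321, 389 and 326 CPM in flox (log2 fold change -0.25, SE 0.18). Per kilobase of merged exon it was the most abundant of the 48 genes, at a mean of 222 CPM, followed by Pcna at 135 CPM, Cenpa at 62.9 CPM and Ccnb2 at 52.5 CPM, while Mcm10 and Mybl2 were the lowest at 1.35 and 1.44 CPM. The log2 fold changes of the 27 genes lay between -0.85 and 0.29.

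Among the genes of the central spindle and of cell division itself, Prc1, which bundles spindle microtubules, had 41.0, 33.6 and 21.6 CPM in CKO and 29.2, 63.8 and 24.5 CPM in flox, and Kif23, a motor of the midbody, had 17.0, 14.7 and 11.9 CPM in CKO and 18.1, 28.7 and 11.5 CPM in flox. In both, flox 2 was the highest library and flox 3 lay near CKO 3. The kinase genes Aurkb (34.0, 22.9 and 18.7 CPM in CKO and 30.6, 44.4 and 21.7 CPM in flox) and Plk1 (24.6, 14.7 and 12.2 CPM in CKO and 16.0, 21.2 and 16.3 CPM in flox) differed in that Plk1 was highest in the library labelled CKO 1. The kinetochore genes Cenpe and Cenpf had their second lowest levels in flox 1 (25.4 and 15.8 CPM) and their lowest in CKO 3 (16.5 and 9.56 CPM), with log2 fold changes of -0.49 (SE 0.38) and -0.44 (SE 0.34). Hmmr and Tpx2, which encode spindle assembly proteins, had log2 fold changes of -0.58 (SE 0.43) and -0.13 (SE 0.24), and Ccna2, the gene of cyclin A2, had -0.22 (SE 0.29).

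Foxm1 and Mybl2 encode factors that act with the CHR-bound complex to switch on mitotic genes, and both overlapped between the groups. Foxm1 stood at 9.14, 8.54 and 9.87 CPM in CKO and 7.22, 7.41 and 8.79 CPM in flox, and its fold change was positive (log2 0.24, SE 0.26). Mybl2 stood at 4.84, 5.53 and 4.94 CPM in CKO and 6.63, 6.84 and 2.85 CPM in flox (log2 fold change -0.096, SE 0.43). Flox 2, the library with the most mitotic RNA, held 7.41 CPM of Foxm1, less than any CKO library.

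The ratio of S phase to mitotic RNA overlapped between the groups. The summed levels gave a ratio of 0.408, 0.550 and 0.590 in CKO 1 to 3 (0.516 ± 0.0955, SD, n = 3), against 0.725, 0.445 and 0.470 in flox 1 to 3 (0.546 ± 0.155). It was lower in each of the 3 libraries that held haemoglobin transcripts (0.408 to 0.470) than in the 3 that did not (0.550 to 0.725). Flox 1 had the highest S phase sum and the fourth highest mitotic sum, while the library labelled CKO 1 had the second highest mitotic sum and the third highest S phase sum. The ratio compares sums of different genes and is read between libraries only.

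The values differed between the haemoglobin classes, and that difference between classes was not tested. Among the libraries without haemoglobin, CKO 2 and CKO 3 averaged below flox 1 for 45 of the 48 genes (93.8%, against 48% of 13431 genes), for all 15 S phase genes (median log2 ratio -0.73) and for 26 of the 27 mitotic genes (median -0.30). Among the libraries with haemoglobin, the library labelled CKO 1 lay below the mean of flox 2 and flox 3 for 25 of the 48 genes (52.1%, against 50.3% of 13307 genes), with medians of -0.00156 for S phase and -0.035 for mitosis. In the first comparison 2 CKO libraries that share a description code, and so perhaps a mouse, stand against 1 flox library, and in the second 1 CKO library stands against 2 flox libraries that share a code, so neither can be tested within itself. The log2 ratio of the S phase sums was -0.67 without and -0.043 with haemoglobin, and that of the mitotic sums was -0.32 without and 0.11 with haemoglobin. With the haemoglobin class as a term in edgeR the median was -0.43 for the S phase genes and -0.15 for the mitotic genes, of which 18 of 27 were negative. With libraries of a shared code summed, which leaves 2 against 2, the medians were -0.46 and -0.17, again with 18 of 27 mitotic genes negative.

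**Figure D5:**
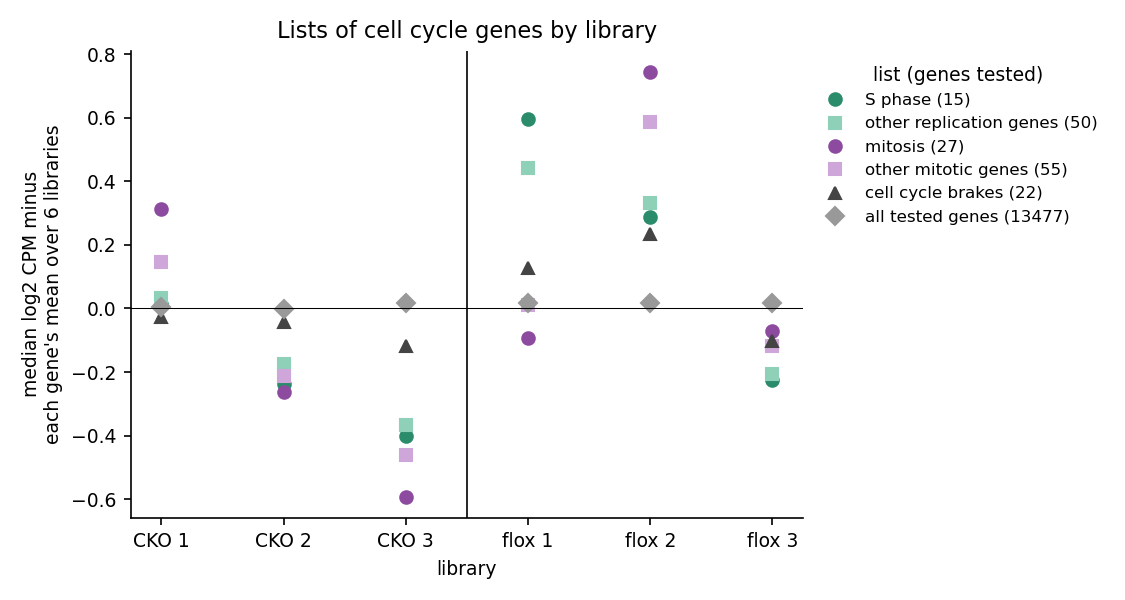
Median, over the tested genes of each list, of log2 CPM minus the mean of each gene over 6 libraries, by library (CKO left, flox right). The 2 further lists follow the sets they extend: S phase and other replication genes are highest in flox 1, both mitotic lists in flox 2, and all 4 are lowest in CKO 3, while the median of all genes stays near 0.

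Genes of the same machinery outside the 48 were read as 4 further lists. Of 50 other replication genes, 48 had a negative fold change and 2 a positive one, with a median of -0.33. None passed the test, and at an unadjusted p under 0.05 4 were lower, against the 1.37% of all tested genes given above. These were Atad2, a chromatin ATPase (27.3 ± 5.29 CPM in CKO and 45.0 ± 14.4 CPM in flox, SD, n = 3 each), Hells, a chromatin remodeller (10.8 ± 3.06 and 17.3 ± 2.05), Prim2, a primase subunit (16.8 ± 2.39 and 24.3 ± 4.54), and Pole2, a subunit of DNA polymerase epsilon (3.78 ± 0.535 and 7.29 ± 2.80). Flox 1 held the highest level of 29 of the 50 and flox 2 of 18.

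Of 55 other mitotic genes, 46 were negative and 9 positive, with a median of -0.30, and 0 passed the test, with 3 lower at an unadjusted p under 0.05. Over all tested genes 49.4% were negative and 1.37% lower at that p. The 4 of smallest p were Fbxo5, an inhibitor of the anaphase-promoting complex (14.2 ± 1.99 CPM in CKO and 27.2 ± 11.6 CPM in flox), Pbk, a mitotic kinase (29.0 ± 4.92 and 49.3 ± 18.5), Ncapg, a condensin subunit (11.1 ± 2.95 and 19.2 ± 6.63), and Smc2, another condensin subunit (34.3 ± 7.10 and 52.1 ± 16.5). The highest level of 37 of the 55 was in flox 2 and of 10 in the library labelled CKO 1. Summed, the 55 genes reached 3579 ± 588 CPM in CKO and 3711 ± 408 CPM in flox, of which H2az1, a variant histone gene, made up 1516 ± 175 and 1419 ± 50.7 CPM (log2 fold change 0.095).

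Among 13 further G1 cyclins, kinases and E2F genes, 12 were tested, with 9 negative, 3 positive and 0 past the threshold. Ccnd3, the gene of cyclin D3, had 66.8 ± 25.9 CPM in CKO and 45.6 ± 14.7 CPM in flox. The E2F family members E2f3 (6.84 ± 2.47 and 10.8 ± 1.80 CPM), E2f8 (10.6 ± 1.78 and 15.4 ± 4.66) and E2f7 (2.49 ± 1.27 and 4.98 ± 2.68) had negative fold changes and unadjusted p-values of 0.0891 to 0.148 (edgeR). E2F7 and E2F8 are repressors that are themselves made in S phase.

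The last list held 22 genes, most of which slow the cycle, though not every one does (Mdm2 is among them). Of the 22, 5 were positive and 17 negative, with a median of -0.21, and 0 passed the test. Cdkn1a, the gene of the CDK inhibitor p21, had 89.4, 116 and 117 CPM in CKO 1 to 3 and 207, 194 and 109 CPM in flox 1 to 3. Flox 1 and flox 2, the libraries with the highest S phase sums, also held the most Cdkn1a, and flox 3 lay within the CKO range (log2 fold change -0.66, SE 0.26, unadjusted p = 0.0331, adjusted p = 0.9996, edgeR). Cdkn1b, the gene of p27, had 25.9 ± 7.42 CPM in CKO and 24.5 ± 6.35 CPM in flox. Rbl1, the gene of the E2F-binding pocket protein p107, had 21.9 ± 4.04 and 32 ± 7.64 CPM. Of the INK4 inhibitor genes, Cdkn2a had 1.98 ± 0.989 CPM in CKO and 5.78 ± 4.03 CPM in flox, and Cdkn2b had 1.41 ± 0.873 and 0.298 ± 0.272 CPM, with all 3 CKO libraries above all 3 flox libraries, as for 3.88% of all tested genes. Cdkn2b rests on 10 to 47 counts in the CKO libraries and 0 to 11 in the flox libraries.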

How the data were processed

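The 6 libraries came from 1 deposited table of estimated counts by gene symbol, which the authors left unscaled; 16.6% of its values are not whole. The submitters' processing notes name fastp 0.18.0, HISAT2 2.2.4 and the build mm10. No source used here states the counting tool, its annotation or its strand setting. Of 21956 rows, 83 without a symbol (0.0122% to 0.0185% of counts) were left out and 22 repeated symbols were summed. Values were then rounded to whole numbers. Totals came to 16149808, 13462683 and 20018910 counts for CKO 1 to 3 and 19682735, 18743897 and 14936446 for flox 1 to 3. The floor of 3 counts behind a 0 equals 0.150 to 0.223 CPM and covers counting error only.

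The test was edgeR 4.0.16 in R 4.3.3 (TMM, filterByExpr, quasi-likelihood fit with robust settings and group as its one term, Benjamini-Hochberg over all tested genes at 0.05), with fold changes at a prior count of 0.125. Alternatives used DESeq2 1.42.0, limma 3.58.1, other scalings and filters, blocks and each library left out. Members and lists were chosen with earlier results of these data known. Genes named were the 4 G1 genes, Mcm2 to Mcm7, Pcna, Mki67, Top2a, Cdk1 and the 2 factors. Also named were the 5 of smallest p in S phase and in mitosis, and up to 4 of smallest p in each further list. Cdkn1a and Cdkn1b were always named. Other members with values in the text, H2az1 and the single cell type markers given were chosen after their values were seen. Haemoglobin classes were split at 100 CPM of 4 haemoglobin genes. Positions and exon lengths are from GENCODE M21 (GRCm38), and start site windows from RefSeq.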

Additional observations from a re-analysis of the deposited data

How the results depend on the processing

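No gene passed the threshold in edgeR under any scaling, filter or left-out library tried, or with limma; DESeq2 called 18 genes and edgeR with the haemoglobin class as a term 2, none of them among the 48 or in the further lists. The S phase median was -0.34 to -0.51 and the mitotic median -0.15 to -0.47 over the settings that keep all libraries; library totals alone moved the median of all genes to -0.12 and gave -0.51 and -0.41. With each library left out in turn the S phase median ran from -0.53 to -0.20 and the mitotic median from -0.63 to -0.032; the log2 ratio of the sums ran from -0.52 to -0.24 and from -0.57 to -0.022. Within the libraries without and with haemoglobin the S phase sum ratio moved to -0.67 and -0.043, and with haemoglobin the mitotic one turned to 0.11; the cause was not tested.

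The title number as a replicate block gave 0 calls and medians of -0.36 and -0.29. It pairs no libraries by any label. Each gene's group mean was subtracted from its log2 CPM, and these deviations were correlated over the tested genes. The correlations of same-numbered libraries were then -0.32, 0.0051 and -0.33. The deviations of a group sum to 0 for each gene, so the correlations are not independent of each other. Of 360 alternative values of the 20 members named by rule, 351 kept their sign. The rule names genes of small p, so this is not a rate for all 48. Over all 48, the main fit had 3 positive fold changes. The number was 2 without the library labelled CKO 1, 12 without CKO 3, 16 without flox 2 and 11 with the haemoglobin term. With a library left out, Mcm2 ran from -0.28 to 0.27 (positive without CKO 2 or flox 1), Ccnd1 from -0.42 to 0.035 (positive without flox 1), E2f1 from -0.069 to 0.39 (negative without CKO 3 or flox 3), Mybl2 from -0.40 to 0.10 (positive without flox 1 or flox 2) and Cdkn1b from -0.12 to 0.28 (negative without CKO 3 or flox 3). Mcm2 was 0.016 with limma-voom sample weights and Mybl2 0.00067 with the replicate block. Cdkn1b was -0.054 with library totals alone, -0.11 with codes summed and -0.14 with the haemoglobin term. Genes with under 10 CPM, such as Mcm10, Ttk, Foxm1 and Mybl2, rest on the fewest counts.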
